A study of Mus musculus with 12 samples.

Results

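The 10 genes described here belong to the cyclic AMP (cAMP) pathway and its transcription factor CREB: Nr4a1, Nr4a2, Nr4a3, Crem, Creb1, Sik1, Pde4b, Pde4d, Rapgef3 and Ppargc1a. They were chosen by name, as genes whose symbol in the GENCODE M21 annotation matched the list, and all 10 were found among the 54752 genes of the count table. The choice was made with earlier results of these data known. All 10 were also among the 18434 genes with enough counts to be tested, with 200 to 9153 counts per library. RNA sequencing was done on B16F10, an established mouse melanoma cell line, in 4 groups of 3 libraries. The control group is labelled wild type, and the others carry a knockout of Ep300, of Crebbp, or of both, the last called double knockout below. All groups grew in DMEM with serum, and no agent that raises cAMP is named in the labels, so the levels are those of cells in standard culture. The labels do not say how each gene was disrupted, whether a knockout is a clone or a pool, or whether the 3 libraries of each group came from independent cultures. A p-value here thus reflects the spread among these libraries alone, and that spread may be technical.

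In the cAMP pathway, a receptor coupled to a stimulatory G protein activates adenylyl cyclase, and the cAMP formed activates protein kinase A (PKA) and the exchange factor EPAC1. PKA phosphorylates CREB, which sits on cAMP response elements (CRE) near gene starts. Phosphorylated CREB binds CBP and p300, the paralogous acetyltransferases encoded by Crebbp and Ep300, and for this reason CREB targets are the textbook example of genes that use these coactivators. In melanocytes the receptor is the melanocortin receptor, and the pathway raises Mitf and pigment formation. The comparison asks whether classical CREB targets fall when CBP, p300 or both are lost.

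The starts of these genes were searched for the letters that CREB reads, and those of the 6 genes that carry a short form of them are shown. RefSeq promoter windows (build GRCm38.p6, 250 bases before the annotated start to 50 after it) were matched by symbol for 8 of the 10 genes, all but Crem and Sik1. Each window was searched on both strands for the full palindrome TGACGTCA and for the short motif TGACG, which is contained in the palindrome on each strand. The full palindrome was in 1.79% of all 32851 windows and in 0 of the 11 windows of these genes. The short motif was in 20.8% of all windows and in 6 windows of these genes, belonging to 6 genes. Each of the 3 Nr4a genes had 4 short motifs in its window, a number reached by 0.231% of all windows. The upstream stretches below run 5′ to 3′ on the gene's strand, and capitals mark TGACG or its reverse complement CGTCA.
Nr4a1, chr15:101266596-101266845, plus strand: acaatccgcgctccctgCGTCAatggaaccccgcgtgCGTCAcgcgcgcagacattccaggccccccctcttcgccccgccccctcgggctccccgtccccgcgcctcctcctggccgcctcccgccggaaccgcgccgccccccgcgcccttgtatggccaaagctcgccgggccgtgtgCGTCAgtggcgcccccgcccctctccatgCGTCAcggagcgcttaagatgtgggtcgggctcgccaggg
Nr4a2, chr2:57124070-57124243, minus strand: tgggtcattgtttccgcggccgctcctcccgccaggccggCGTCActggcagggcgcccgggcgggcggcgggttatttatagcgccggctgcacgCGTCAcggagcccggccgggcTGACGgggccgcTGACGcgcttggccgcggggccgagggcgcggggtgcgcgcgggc
Nr4a3, chr4:48045055-48045202, plus strand: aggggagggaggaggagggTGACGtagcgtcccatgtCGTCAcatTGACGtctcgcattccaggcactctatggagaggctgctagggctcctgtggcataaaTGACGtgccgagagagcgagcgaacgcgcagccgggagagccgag
Pde4b, chr4:102421481-102421554, plus strand: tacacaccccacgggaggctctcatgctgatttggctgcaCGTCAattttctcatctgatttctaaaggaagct
Rapgef3, chr15:97767813-97767897, minus strand: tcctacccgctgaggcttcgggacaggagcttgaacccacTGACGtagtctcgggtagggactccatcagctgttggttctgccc
Ppargc1a, chr5:51567730-51567814, minus strand: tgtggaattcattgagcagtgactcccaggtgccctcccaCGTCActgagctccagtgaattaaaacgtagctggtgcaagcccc
A match is a description of the letters and not a measured binding site. The 3 Nr4a starts are shown for their repeated motifs, and Pde4b, Rapgef3 and Ppargc1a for contrast, since each has 1 motif (for Pde4b, in 1 of its 4 windows). In Nr4a1 the first bases of the motifs lay at -233, -213, -69 and -40 from the RefSeq start, which is inside the annotated gene.

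Library totals ran from 64257251 to 85604243 counts. Crebbp transcript stood at 64.7 ± 7.00 CPM (counts scaled to a common library total with TMM factors; SD, n = 3) in control and at 80.7 ± 11.9 in Ep300 knockout, with 34.5 ± 3.60 in Crebbp knockout and 64.0 ± 6.13 in double knockout. Ep300 transcript stood at 94.4 ± 7.72, 85.1 ± 8.80, 104 ± 12.4 and 148 ± 11.1 CPM in the same order. Against control, Crebbp was called lower in Crebbp knockout (-0.91 ± 0.12, SE) but not in double knockout (-0.02 ± 0.11), and Ep300 was not called lower in Ep300 knockout (-0.15 ± 0.10) and was higher in double knockout (0.65 ± 0.10). Counts per gene do not measure loss of an exon or of protein, so the transcript levels leave the labels of Ep300 knockout and double knockout unchecked, and the groups below are the libraries so labelled. All 8 melanocyte markers were detected in every group. Their summed level ran from 20004 to 21950 CPM in control, 18788 to 19587 in Crebbp knockout, 14620 to 15332 in Ep300 knockout and 6684 to 6852 in double knockout. Summed markers of immune cells (7 genes) stayed between 2.25 and 7.26 CPM, with Ptprc at 0 counts in control, Crebbp knockout and double knockout. Those of endothelium (5 genes) reached at most 0.359 CPM and those of epithelium (5 genes) at most 0.577. The summed fibroblast list (7 genes) ran from 6.38 to 8.14 CPM in control, 14.5 to 19.4 in Ep300 knockout, 8.57 to 12.3 in Crebbp knockout and 12.7 to 13.8 in double knockout. Col1a1 made up most of it in Ep300 knockout (13.8 CPM), and Lum was at 0 counts in Crebbp knockout and double knockout. The part of these differences in the results below was not tested. In bulk RNA, fewer cells of a type and less RNA per cell cannot be told apart.

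Levels per kilobase used the union of all annotated exons of a gene, which can exceed the length of the transcript made. Crem has 39 annotated transcripts and Pde4d 20, so the order between genes is approximate. On this scale Ppargc1a had the highest level of the 10 in control, at 11.5 ± 0.850 CPM per kilobase (SD, n = 3). Creb1 followed at 8.08 ± 0.342, then Crem at 6.54 ± 0.441, Nr4a3 at 6.38 ± 0.719, Nr4a1 at 3.65 ± 0.532, Pde4b at 2.91 ± 0.0800, Rapgef3 at 2.15 ± 0.145, Sik1 at 1.40 ± 0.145, Nr4a2 at 0.876 ± 0.0134 and Pde4d at 0.667 ± 0.0586. Only Crem and Nr4a3 overlapped among neighbours in this order. In double knockout the order changed at the top, in the middle and at the bottom. Nr4a2 (2.43 ± 0.0534 CPM per kilobase) moved above Sik1 (1.85 ± 0.0553). Nr4a3 (8.65 ± 0.512 CPM per kilobase) and Nr4a1 (8.56 ± 0.176) came first, with overlapping libraries, and Rapgef3 (0.488 ± 0.0316) came last, below Pde4d (0.571 ± 0.0167).

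**Figure D1:**
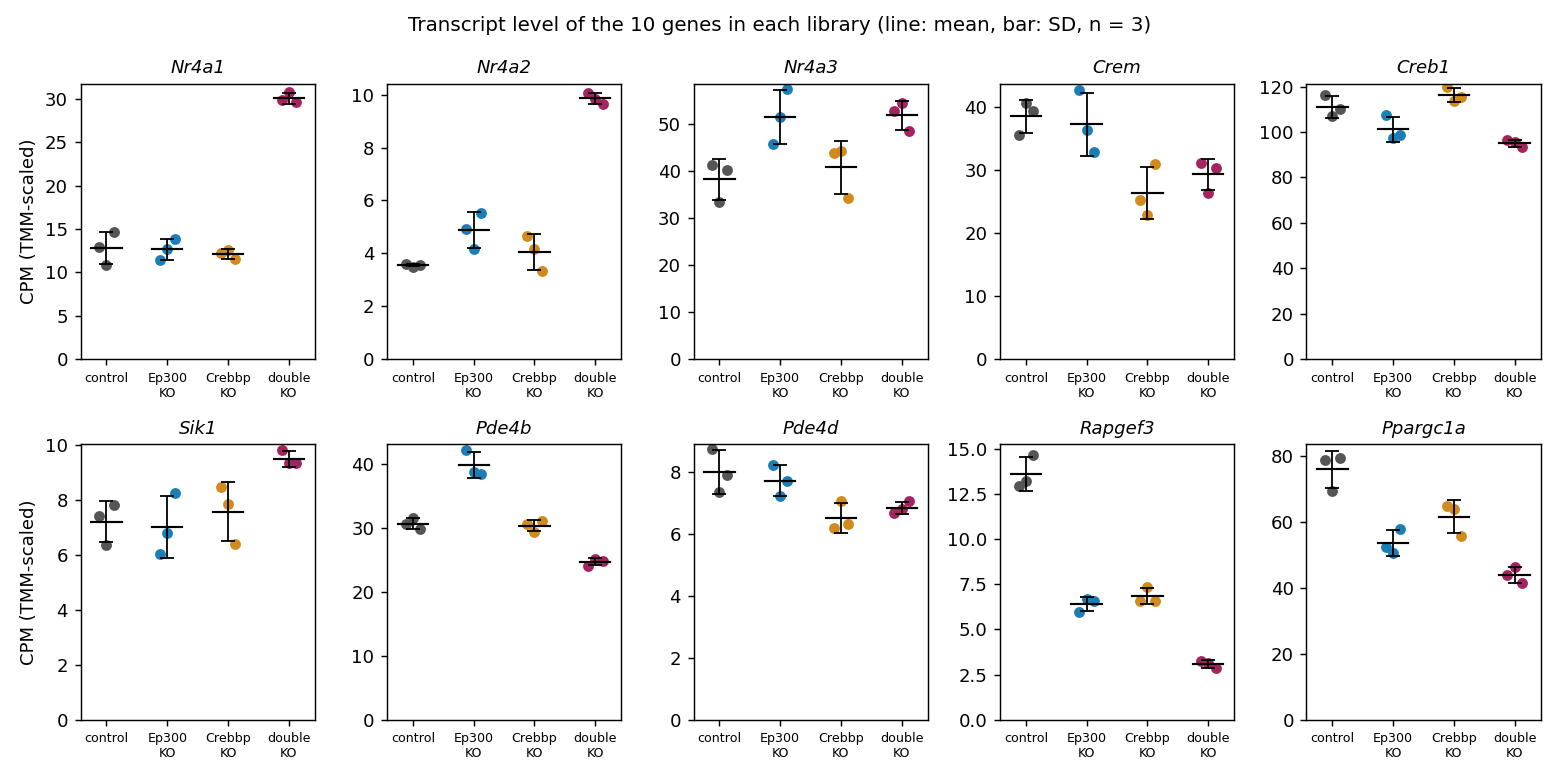
Level of each of the 10 genes in CPM after TMM scaling (vertical axis, starting at 0) in the 4 groups. Points are libraries, the line is the mean and the bar the SD (n = 3). Nr4a1 and Nr4a2 stand apart upward in double knockout, at 30.1 and 9.86 CPM, and Rapgef3 steps down from 13.6 CPM in control to 6.41 and 6.84 in the single knockouts and 3.09 in double knockout.

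The Nr4a genes encode orphan nuclear receptors that are switched on within minutes of a cAMP signal and are among the best known CREB targets. In libraries labelled double knockout all 3 rose, and in neither single knockout was a fall called for any of them. Nr4a1 (ENSMUSG00000023034, mm10 chromosome 15, 101254269 to 101274795, plus strand) was at 13.0, 10.9 and 14.6 CPM in the control libraries, at 11.4, 12.7 and 13.8 in Ep300 knockout, at 12.2, 12.6 and 11.5 in Crebbp knockout and at 29.8, 30.8 and 29.6 in double knockout. The first 3 groups overlapped, and every double-knockout library lay above all 9 others. Separation of libraries was common over all tested genes. The libraries of Ep300, Crebbp and double knockout did not overlap those of control for 28.4%, 20.5% and 59.7% of them. Its log2 fold change against control was -0.02 ± 0.10 in Ep300 knockout (SE, n = 3, adjusted p = 0.932), -0.09 ± 0.10 in Crebbp knockout (0.691) and 1.23 ± 0.10 in double knockout (7.32e-08), a fold of 2.34. The 95% intervals in the single knockouts, -0.23 to 0.19 and -0.30 to 0.13, set the limits within which a change went undetected.

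Nr4a2 (ENSMUSG00000026826, chromosome 2, 57106830 to 57124003, minus strand) was the least abundant of the family. Its control libraries held 3.61, 3.50 and 3.57 CPM, Ep300 knockout 4.92, 4.18 and 5.54, Crebbp knockout 4.67, 4.15 and 3.33, and double knockout 10.1, 9.85 and 9.65. Crebbp knockout straddled the control values, Ep300 knockout lay just above them and double knockout far above. It rose by 1.47 ± 0.12 on the log2 scale in double knockout (adjusted p = 1.46e-07), a fold of 2.77, and by 0.46 ± 0.13 in Ep300 knockout (0.0217), with 0.19 ± 0.13 in Crebbp knockout (0.473). The call in Ep300 knockout ends without control replicate 1, 2 or 3 (adjusted p = 0.0563, 0.0508 and 0.0627). The change hardly moved there, at 0.46, 0.44 and 0.45. Without Ep300-knockout replicate 3 the call also ends (0.0967), and the change was smaller, at 0.35.

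Nr4a3 (ENSMUSG00000028341, chromosome 4, 48045153 to 48086447, plus strand) followed another course, with a similar level in Ep300 knockout and double knockout. It was at 41.2, 33.3 and 40.2 CPM in control, at 45.7, 51.4 and 57.3 in Ep300 knockout, at 43.9, 44.2 and 34.2 in Crebbp knockout and at 52.6, 54.3 and 48.4 in double knockout. All Ep300-knockout and double-knockout libraries lay above all control libraries, and those of Crebbp knockout overlapped control. Nr4a3 rose by 0.43 ± 0.11 (adjusted p = 0.0137) in Ep300 knockout and by 0.44 ± 0.11 (0.00407) in double knockout, with 0.09 ± 0.11 in Crebbp knockout (0.703). Double knockout differed from Ep300 knockout by 0.01 ± 0.11 (0.965), with a 95% interval from -0.23 to 0.24. Without control replicate 2, the lowest library, the Ep300-knockout call ends (0.34, adjusted p = 0.0552), as it does without Ep300-knockout replicate 3 (0.0580).

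Sik1 (ENSMUSG00000024042, chromosome 17, 31844250 to 31855804, minus strand) encodes a salt-inducible kinase that is itself induced through CREB and restrains the CREB coactivators of the CRTC family. Its level was 7.39, 6.37 and 7.82 CPM in control, 6.02, 6.78 and 8.23 in Ep300 knockout, 8.47, 7.84 and 6.39 in Crebbp knockout and 9.81, 9.32 and 9.32 in double knockout. The 3 double-knockout libraries lay above the 9 others, which overlapped. The log2 fold change was -0.04 ± 0.13 (adjusted p = 0.890), 0.07 ± 0.13 (0.807) and 0.40 ± 0.12 (0.0157) in Ep300 knockout, Crebbp knockout and double knockout. The double-knockout call ends with offsets for exon length and GC content, where the change is 0.17 (adjusted p = 0.161), without control replicate 2 (0.32, 0.0649) and without double-knockout replicate 1 (0.37, 0.0510).

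Rapgef3 encodes EPAC1, which senses cAMP independently of PKA and loads GTP onto Rap1. It had the largest change of the 10 genes in each of the 3 comparisons with control. Rapgef3 (ENSMUSG00000022469, chromosome 15, 97744770 to 97767972, minus strand) was at 12.9, 13.2 and 14.7 CPM in control, at 5.95, 6.70 and 6.59 in Ep300 knockout, at 6.57, 7.38 and 6.59 in Crebbp knockout and at 3.25, 3.15 and 2.87 in double knockout. The 4 groups formed 3 steps without overlap: control, both single knockouts together, and double knockout. It fell by 1.08 ± 0.09 on the log2 scale in Ep300 knockout (adjusted p = 4.3e-07), by 0.99 ± 0.09 in Crebbp knockout (5.89e-05) and by 2.14 ± 0.10 in double knockout (8.2e-11), where 0.227 of the control level was left. By p-value it ranked 6 among the 18434 tested genes in Crebbp knockout. The single knockouts differed from each other by -0.09 ± 0.09 (Ep300 minus Crebbp, adjusted p = 0.588, 95% interval -0.29 to 0.10), and double knockout was lower than Ep300 knockout by -1.05 ± 0.10 (1.25e-06) and than Crebbp knockout by -1.15 ± 0.10 (1.65e-07). All of these calls were kept in each of 22 other settings, in which the double-knockout change against control ran from -2.44 to -2.08. The annotated antisense genes Rapgef3os1 and Rapgef3os2 overlap its exons by 236 and 351 bases and held at most 2 and 45 counts in a library.

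Ppargc1a encodes PGC-1alpha, a coactivator that drives mitochondrial genes and is raised by cAMP in several tissues. Ppargc1a (ENSMUSG00000029167, chromosome 5, 51454250 to 51567726, minus strand) was at 78.9, 69.4 and 79.4 CPM in control, at 52.3, 50.5 and 57.9 in Ep300 knockout, at 64.9, 63.9 and 55.8 in Crebbp knockout and at 44.0, 46.2 and 41.4 in double knockout. Each knockout library lay below each control library, and the single knockouts overlapped. It fell by 0.50 ± 0.08 in Ep300 knockout (adjusted p = 0.00037) and by 0.79 ± 0.08 in double knockout (1.25e-06). In Crebbp knockout its log2 fold change was -0.30 ± 0.08 with an adjusted p of 0.0562, and it passed the threshold in 6 of 22 other settings, DESeq2 among them (adjusted p = 0.0145). Its level in double knockout was also below that in Ep300 knockout (-0.29 ± 0.08, 0.0126, but 0.0616 without double-knockout replicate 3) and Crebbp knockout (-0.49 ± 0.08, 0.000184).

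Creb1 and Crem encode the transcription factors of the pathway. Creb1 (ENSMUSG00000025958, chromosome 1, 64532645 to 64604548, plus strand) encodes CREB and was at 116, 107 and 110 CPM in control, at 108, 97.4 and 98.8 in Ep300 knockout, at 120, 114 and 115 in Crebbp knockout and at 96.5, 95.4 and 93.4 in double knockout. Its range over all 12 libraries was narrow, with double knockout the lowest group and Crebbp knockout the highest. It fell by 0.22 ± 0.06 in double knockout (adjusted p = 0.00717), with a log2 fold change of -0.13 ± 0.06 in Ep300 knockout (0.175) and 0.07 ± 0.06 in Crebbp knockout (0.611). Ep300 knockout was lower than Crebbp knockout by -0.20 ± 0.06 (0.0427), a call that ends in 15 of 22 other settings. The double-knockout libraries had the highest TMM factors, 1.10, 1.12 and 1.11, against 0.890 to 1.04 in the other libraries. The part of this scaling in small double-knockout falls, such as those of Creb1 and Pde4b, was not tested. Every other setting also scaled libraries on the bulk of genes, of which 49.4% were called in double knockout.

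Crem (ENSMUSG00000063889, chromosome 18, 3266048 to 3337748, minus strand) encodes activators and, from an internal promoter, the repressor ICER, which counts per gene do not separate. The control libraries held 35.7, 40.7 and 39.4 CPM, Ep300 knockout 42.7, 36.3 and 32.8, Crebbp knockout 25.3, 22.8 and 31.0, and double knockout 31.2, 26.5 and 30.4. Both groups that lack Crebbp by their labels lay below control, while Ep300 knockout overlapped it. Crem fell by 0.55 ± 0.12 in Crebbp knockout (adjusted p = 0.0189) and by 0.39 ± 0.11 in double knockout (0.00983), with -0.05 ± 0.11 in Ep300 knockout (0.843). Ep300 knockout was higher than Crebbp knockout by 0.50 ± 0.11 (0.0081), a call kept in each of 22 other settings. The Crebbp-knockout call ends without control replicate 2 (adjusted p = 0.0514) or 3 (0.0762) and without Crebbp-knockout replicate 1 (0.0759) or 2 (0.0947), and the double-knockout call without double-knockout replicate 2 (0.0545). The predicted gene Gm6225 overlaps Crem exons on the opposite strand by 472 bases and held at most 67 counts in a library.

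Pde4b and Pde4d encode cAMP phosphodiesterases, which end the signal by degrading cAMP. Pde4b (ENSMUSG00000028525, chromosome 4, 102087543 to 102607259, plus strand) moved in opposite directions in Ep300 knockout and double knockout. It was at 30.6, 31.5 and 29.9 CPM in control, at 42.2, 38.8 and 38.4 in Ep300 knockout, at 30.6, 29.4 and 31.1 in Crebbp knockout and at 24.1, 25.2 and 24.8 in double knockout. Ep300 knockout lay above and double knockout below all other libraries. It rose by 0.37 ± 0.06 in Ep300 knockout (adjusted p = 0.000437) and fell by 0.31 ± 0.06 in double knockout (0.000628), with -0.01 ± 0.06 in Crebbp knockout (0.927). Double knockout was lower than Ep300 knockout by -0.69 ± 0.06 (1.03e-06).

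Pde4d (ENSMUSG00000021699, chromosome 13, 108449948 to 109953461, plus strand) was at 8.76, 7.36 and 7.91 CPM in control, at 8.24, 7.24 and 7.70 in Ep300 knockout, at 6.19, 7.08 and 6.31 in Crebbp knockout and at 6.68, 6.80 and 7.07 in double knockout. Crebbp knockout and double knockout lay below control without overlap. None of the 3 comparisons with control passed, at -0.05 ± 0.09 (adjusted p = 0.770), -0.30 ± 0.09 (0.0996) and -0.23 ± 0.09 (0.0519). In double knockout it was called in 8 of 22 other settings, and in Crebbp knockout in 2, by DESeq2 (0.0400) and with offsets for length and GC content (0.0453).

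In counts, 5 of the 10 genes were called in Ep300 knockout, 3 higher and 2 lower, where 16.1% of all tested genes were called, 7.27% higher and 8.83% lower. In Crebbp knockout 2 of 10 were called, both lower, against 3.13% of all genes (1.52% higher and 1.61% lower). None of the 10 was called higher there by edgeR, DESeq2 or limma-voom, and 0 were higher at an unadjusted p under 0.05, where 4 were lower. In double knockout 9 of 10 were called, 4 higher and 5 lower, against 49.4% of all genes (24.7% higher and 24.6% lower). The median log2 fold change of the 10 was -0.04, -0.05 and -0.23 in the 3 comparisons, beside 0.01, -0.01 and -0.02 over all tested genes. The 3 comparisons share the same control libraries. Since the 10 genes were chosen with earlier results of these data known, these counts describe them and do not test them as a set. The genes that rose in double knockout were Nr4a1, Nr4a2, Nr4a3 and Sik1, and the genes that fell were Rapgef3, Ppargc1a, Crem, Pde4b and Creb1.

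**Figure D2:**
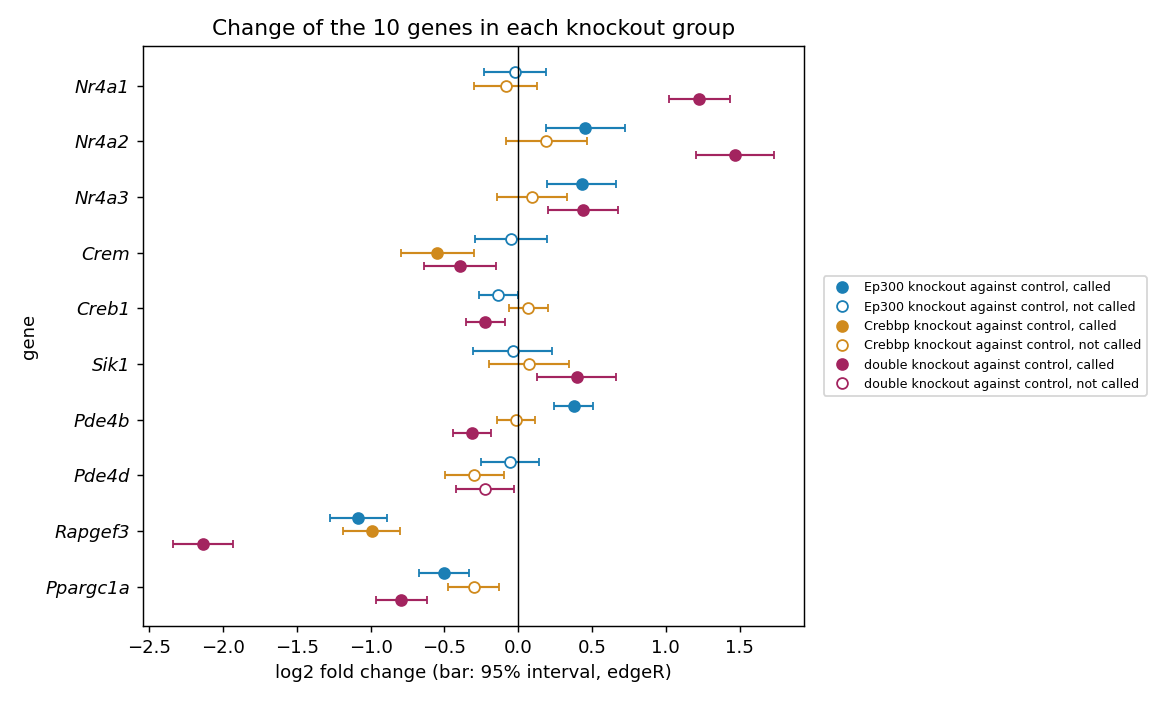
Log2 fold change against control (horizontal axis) of the 10 genes in the 3 knockout groups, with 95% intervals derived from edgeR's F test. Filled points passed an adjusted p of 0.05 and open points did not. The intervals are not adjusted over genes, so an interval and a call can differ. Ppargc1a in Crebbp knockout is open with an interval from -0.47 to -0.13. Rapgef3 lies leftmost in each group, from -0.99 to -2.14, and Nr4a1 and Nr4a2 lie rightmost in double knockout, at 1.23 and 1.47.

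The double knockout was next set against the sum of the log2 changes in Ep300 knockout and Crebbp knockout, where 10.3% of all tested genes departed from the sum, 5.33% upward and 4.96% downward. Of the 10 genes, 3 departed, Nr4a1 and Nr4a2 upward and Pde4b downward. For Nr4a1 the sum was -0.11 and the double-knockout change 1.23, a departure of 1.33 ± 0.14 (SE, adjusted p = 2.78e-05). Nr4a2 had a sum of 0.64 and a departure of 0.83 ± 0.18 (0.00787). For Pde4b the sum was 0.36 and the departure -0.67 ± 0.09 (0.000172). These 3 calls were kept in each of 21 other settings. Rapgef3 and Ppargc1a were not called as departing, with differences from the sum of -0.06 ± 0.13 (adjusted p = 0.814, 95% interval -0.34 to 0.22) and 0.01 ± 0.11 (0.958, -0.23 to 0.26). Sik1 was at 0.36 ± 0.18 (0.215), Crem at 0.20 ± 0.16 (0.473), Pde4d at 0.12 ± 0.13 (0.597), Nr4a3 at -0.08 ± 0.16 (0.786) and Creb1 at -0.16 ± 0.09 (0.281). With offsets for length and GC content the departure of Creb1 was -0.29 and called (adjusted p = 0.0257), and so it was with the replicate block added (0.0499).

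**Figure D3:**
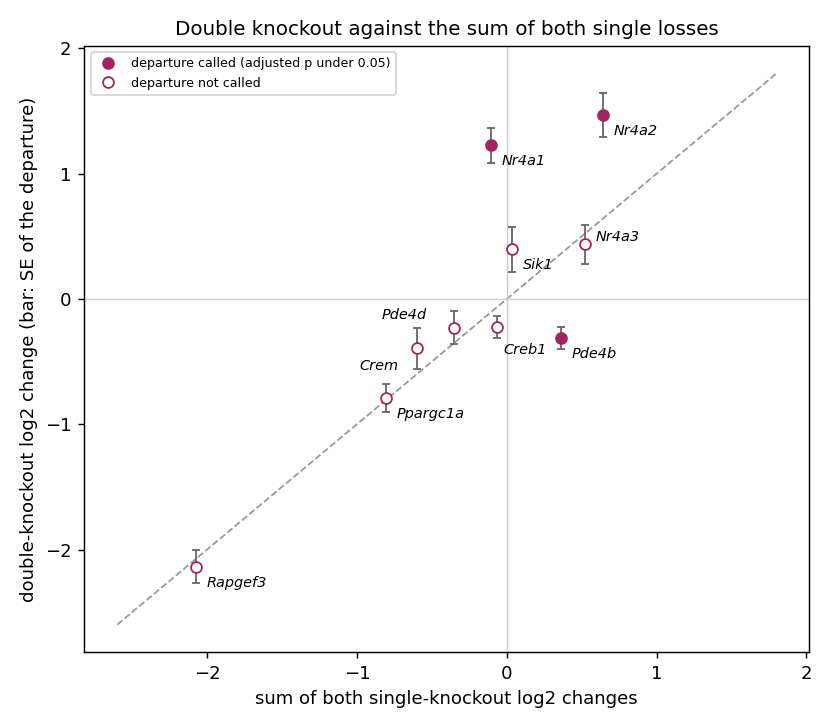
Double-knockout log2 change (vertical axis) against the summed log2 changes of the single knockouts (horizontal axis) for the 10 genes. The dashed line is equality, bars are the SE of the departure, and filled points passed an adjusted p of 0.05. Nr4a1 and Nr4a2 lie above the line by 1.33 and 0.83, Pde4b lies below it (-0.67), and Rapgef3 (-0.06) and Ppargc1a (0.01) lie near it.

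Between the knockout groups, 7 of 10 genes were called in double knockout against Ep300 knockout, 3 higher and 4 lower, where 34.6% of all genes were called (18.0% higher, 16.6% lower). Nr4a1 was higher there by 1.25 ± 0.10 and Nr4a2 by 1.01 ± 0.12. Sik1 was higher by 0.43 ± 0.12 and Crem lower by -0.35 ± 0.11, and each of these calls ends in 4 of 22 other settings. With offsets for length and GC content the split was 2 higher and 6 lower, since Sik1 lost its call and Creb1 (-0.21, adjusted p = 0.00929, from -0.09) and Pde4d (-0.33, 0.0104, from -0.17) gained one. Against Crebbp knockout 8 of 10 were called, 4 higher and 4 lower, where 43.2% of all genes were (21.4% higher, 21.8% lower). Nr4a1 stood 1.31 ± 0.10 and Nr4a2 1.28 ± 0.12 above Crebbp knockout, Nr4a3 0.35 ± 0.11 and Sik1 0.32 ± 0.12. The Sik1 call ends in 11 of 22 other settings and that of Nr4a3 in 3. In Ep300 knockout against Crebbp knockout 3 of 10 were called, Crem and Pde4b higher and Creb1 lower, where 13.6% of all genes were (6.26% higher, 7.37% lower). Pde4b was higher there by 0.39 ± 0.06 (adjusted p = 0.000391). Nr4a3, at 0.34 ± 0.11 (0.0566), was called higher in 7 of 22 other settings and Pde4d, at 0.24 ± 0.09 (0.105), in 2. With offsets for length and GC content the split was 4 higher and 0 lower, with Creb1 at -0.16 (0.0557).

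The 10 genes did not move as 1 unit over the 12 libraries. As a description, Pearson's r of log2 CPM was 0.93 between Nr4a1 and Nr4a2 and 0.95 between Rapgef3 and Ppargc1a, and -0.90 between Nr4a2 and Rapgef3. These 12 points share 4 groups and the same libraries, so r includes the differences between groups. After removing the group means, r for these 3 pairs was 0.29, 0.40 and 0.04. The pairs with the highest r within groups were others, at 0.91 between Nr4a3 and Sik1, 0.91 between Nr4a3 and Ppargc1a and 0.83 between Sik1 and Ppargc1a. The lowest r within groups was -0.87, between Nr4a3 and Crem. Control replicate 2 was the lowest control library for Nr4a1, Nr4a2, Nr4a3, Creb1, Sik1, Pde4d and Ppargc1a, and it also had the lowest total count and the lowest TMM factor (0.890) of all 12. Crebbp-knockout replicate 3 was the lowest of its group for Nr4a1, Nr4a2, Nr4a3, Sik1 and Ppargc1a, and had the next lowest TMM factor (0.911) and the highest share of mitochondrial counts (6.39%, against 3.02% to 5.31% in the other libraries). Without both libraries, 5, 2 and 10 of the 10 genes were called in Ep300, Crebbp and double knockout, with Nr4a1 at 1.12 and Rapgef3 at -2.16 in double knockout. The part of these 2 libraries in the within-group correlations was not tested.

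Among 9422 other named genes that averaged 5 CPM or more, those most like Nr4a1 over the 12 libraries were Map3k3 and Tmem67 (both r = 0.988), and most like Nr4a2 were Nemp1 (0.995) and Csnk1g1 (0.991). Nr4a3 was most like Tln1 and Chd3 (both 0.981), and Sik1 like Sufu (0.977) and Hmgxb3 (0.967). Rapgef3 was most like Rell1 (0.991) and Fbln5 (0.988), and Ppargc1a like Aldh1l1 (0.986) and Cerk (0.984). Crem was most like Serpinb9b (0.956) and Tank (0.950), Creb1 like Plch1 (0.957) and Casd1 (0.951), Pde4b like Ckb (0.950) and Ect2 (0.917), and Pde4d like Nceh1 (0.893) and D10Wsu102e (0.860). All are correlations over the same 12 libraries and describe shared patterns across groups.

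The other genes of the pathway were read from 6 lists of 104 genes in all, also chosen with earlier results of these data known. Their counts are read against the shares called over all tested genes, which were 7.27% higher and 8.83% lower in Ep300 knockout, 1.52% and 1.61% in Crebbp knockout, and 24.7% and 24.6% in double knockout. Of 26 other CREB targets, 19 were tested. The list names genes known as CREB targets, and whether CREB drives them in these cells was not measured. In Ep300 knockout 8 rose and 2 fell, in Crebbp knockout 3 rose, and in double knockout 14 rose and 3 fell, beside 16.1%, 3.13% and 49.4% of all genes called in either direction. The list medians were 0.47, -0.13 and 1.37, beside 0.01, -0.01 and -0.02 over all genes. Egr1, an immediate-early transcription factor, was at 3.21 ± 0.403 CPM in control (SD, n = 3), 17.2 ± 2.83 in Ep300 knockout and 7.19 ± 0.544 in Crebbp knockout, and reached 102 ± 1.73 in double knockout, where it rose by 4.98 ± 0.12. Bdnf, a neurotrophin, stood at 3.37 ± 0.191, 9.55 ± 0.300, 5.16 ± 0.401 and 26.1 ± 0.502 CPM, and rose by 2.95 ± 0.08 in double knockout (adjusted p = 4.12e-13). Junb, an AP-1 subunit, rose there by 2.08 ± 0.09. Btg2, an antiproliferative factor, rose by 0.75 ± 0.07 in Ep300 knockout, and Nfil3, a leucine zipper repressor, by 0.31 ± 0.07 in Crebbp knockout. Mitf, the lineage factor that cAMP raises in melanocytes and a gene that is also in the melanocyte marker list, was the lowest in double knockout at -1.38 ± 0.07. Odc1 and Rgs2 were the other 2 that fell there, at -0.42 ± 0.09 and -0.68 ± 0.12, and were named after their values were seen. Of the 19, 12 departed upward from the sum of both single losses and 1 downward, beside 5.33% and 4.96% of all genes. At the low end of the single knockouts, Inhba held 0.253 ± 0.222 CPM in control and was at -0.75 ± 0.61 in Ep300 knockout and -0.94 ± 0.64 in Crebbp knockout, neither called.

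The CREB partners and kinases numbered 12, all tested. By edgeR 0 of 12 were called in Ep300 knockout (2 at an unadjusted p under 0.05, 1 call by DESeq2 and 0 by limma-voom) and 0 in Crebbp knockout (1 unadjusted, 0 by either other tool). In edgeR 7 rose and 1 fell in double knockout, beside 24.7% and 24.6% of all genes, with medians of 0.06, 0.06 and 0.31. Crtc1 and Crtc2, the coactivators that bind CREB beside CBP, rose by 0.71 ± 0.12 (adjusted p = 0.000195) and 0.59 ± 0.09 (5.28e-05) in double knockout, and the kinase gene Sik2 by 0.35 ± 0.08 (0.00249). Rps6ka3, which encodes the CREB kinase RSK2, fell by 0.23 ± 0.09 (0.0438). Crtc1 was the highest of the list in Ep300 knockout at 0.20 ± 0.12 and Crtc2 in Crebbp knockout at 0.22 ± 0.09. Camk4, at 0.377 ± 0.121 CPM in control, was the lowest in both, at -0.24 ± 0.39 and -0.43 ± 0.40.

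Of 20 receptors, G proteins and cyclases, 13 were tested. In Ep300 knockout 2 rose and 2 fell, in Crebbp knockout 1 fell, and in double knockout 6 rose and 4 fell (medians 0.16, 0.13 and 0.26). Over all genes 16.1%, 3.13% and 49.4% were called. Mc1r, the melanocortin receptor that feeds the pathway in melanocytes, was lower in all 3, from 87.4 ± 2.53 CPM in control to 54.2 ± 2.54 in Ep300 knockout and 72.7 ± 2.07 in Crebbp knockout, down to 22.7 ± 0.939 in double knockout. Adcy2 fell by 1.98 ± 0.20 in Ep300 knockout and by 2.75 ± 0.21 in double knockout, from 2.92 ± 0.188 to 0.741 ± 0.126 and 0.438 ± 0.152 CPM. Adcy6 rose by 0.75 ± 0.09 in double knockout (adjusted p = 4.69e-06), from 17.8 ± 1.79 to 30.1 ± 0.0490 CPM, and Gnai2, an inhibitory G protein subunit, rose by 0.30 ± 0.07 in Ep300 knockout. Adora2a, an adenosine receptor, was the highest in double knockout at 2.22 ± 0.43, from a low level of 0.127 ± 0.106 CPM. It was also the highest in Ep300 knockout at 1.04 ± 0.46 (adjusted p = 0.161). Adcy5 and Adora2b were the extremes in Crebbp knockout, at 0.91 ± 0.47 and -0.66 ± 0.42, neither called.

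Of 14 other phosphodiesterases, 11 were tested. In Ep300 knockout 2 rose and 6 fell, in Crebbp knockout 1 rose and 2 fell, and in double knockout 3 rose and 7 fell (medians -0.43, -0.07 and -0.87). Over all genes 8.83%, 1.61% and 24.6% were called lower in these comparisons. Pde3a fell by 2.25 ± 0.20 in Ep300 knockout and by 2.48 ± 0.20 in double knockout. Pde7b fell by 1.40 ± 0.15 in Ep300 knockout and by 0.83 ± 0.15 in Crebbp knockout, and Pde1c by 1.21 ± 0.12 in Ep300 knockout. Pde11a, at 48.3 ± 1.06 CPM in control, fell by 0.35 ± 0.07 in Crebbp knockout and by 1.21 ± 0.07 in double knockout. Pde4a, the paralog of Pde4b and Pde4d, rose by 1.61 ± 0.13 in double knockout, from 3.69 ± 0.694 to 11.3 ± 0.218 CPM. Pde1a was the highest of the list in all 3 comparisons, at 1.21 ± 0.18, 1.60 ± 0.18 and 1.61 ± 0.18, from 0.583 ± 0.0708 CPM in control.

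All 22 genes for PKA, EPAC, Rap1 and PKA anchors were tested. In Ep300 knockout 2 rose and 8 fell, in Crebbp knockout 1 rose and 1 fell, and in double knockout 4 rose and 9 fell (medians -0.11, -0.07 and -0.13). The 13 of 22 called in double knockout stand beside 49.4% of all genes called, and the 4 that rose beside 24.7% called higher. Akap12, a scaffold that tethers PKA, rose by 1.92 ± 0.11, 0.44 ± 0.11 and 3.74 ± 0.12, from 19.2 ± 2.12 CPM in control to 257 ± 7.67 in double knockout. Prkar2b, a regulatory subunit of PKA, fell by 0.52 ± 0.07, 0.26 ± 0.07 and 1.73 ± 0.07 on the log2 scale. Rapgef4, which encodes EPAC2, the paralog of EPAC1, fell by 0.61 ± 0.07 in Ep300 knockout and by 1.29 ± 0.07 in double knockout (adjusted p = 2.04e-05 and 1.58e-09), with -0.26 ± 0.07 in Crebbp knockout (0.0691). Rap1a and Rap1b, the GTPases that EPAC activates, fell by 0.58 ± 0.12 and 0.62 ± 0.13 in double knockout and were named after their values were seen. Prkar1b was the lowest of the list in all 3 comparisons, at -3.42 ± 0.65, -1.56 ± 0.54 and -3.14 ± 0.61, from only 0.370 ± 0.142 CPM in control, and was not called in Crebbp knockout (0.142).

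Of 10 partners and targets of PGC-1, 9 were tested. In Ep300 knockout 1 fell, in double knockout 2 rose and 5 fell, with medians of -0.14 and -0.28, beside 16.1% and 49.4% of all genes called in either direction. In Crebbp knockout edgeR called 0 of 9 (3 at an unadjusted p under 0.05, 1 call by DESeq2 and 0 by limma-voom), with a median of -0.16. Ppargc1b, which encodes PGC-1beta, fell by 1.15 ± 0.18 in double knockout, and Esrra, a nuclear receptor that PGC-1alpha coactivates, by 0.69 ± 0.10. Sod2, a mitochondrial superoxide dismutase, fell by 0.35 ± 0.07 in Ep300 knockout and by 0.44 ± 0.07 in double knockout. Cycs, which encodes cytochrome c, was the lowest in Crebbp knockout at -0.37 ± 0.12 (adjusted p = 0.122), and Pprc1 the highest at 0.09 ± 0.11. Cpt1a was the highest in Ep300 knockout at 0.18 ± 0.10 and in double knockout at 0.40 ± 0.10, called only in the latter. Ppargc1b was the lowest in Ep300 knockout at -0.41 ± 0.17, not called.

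**Figure D4:**
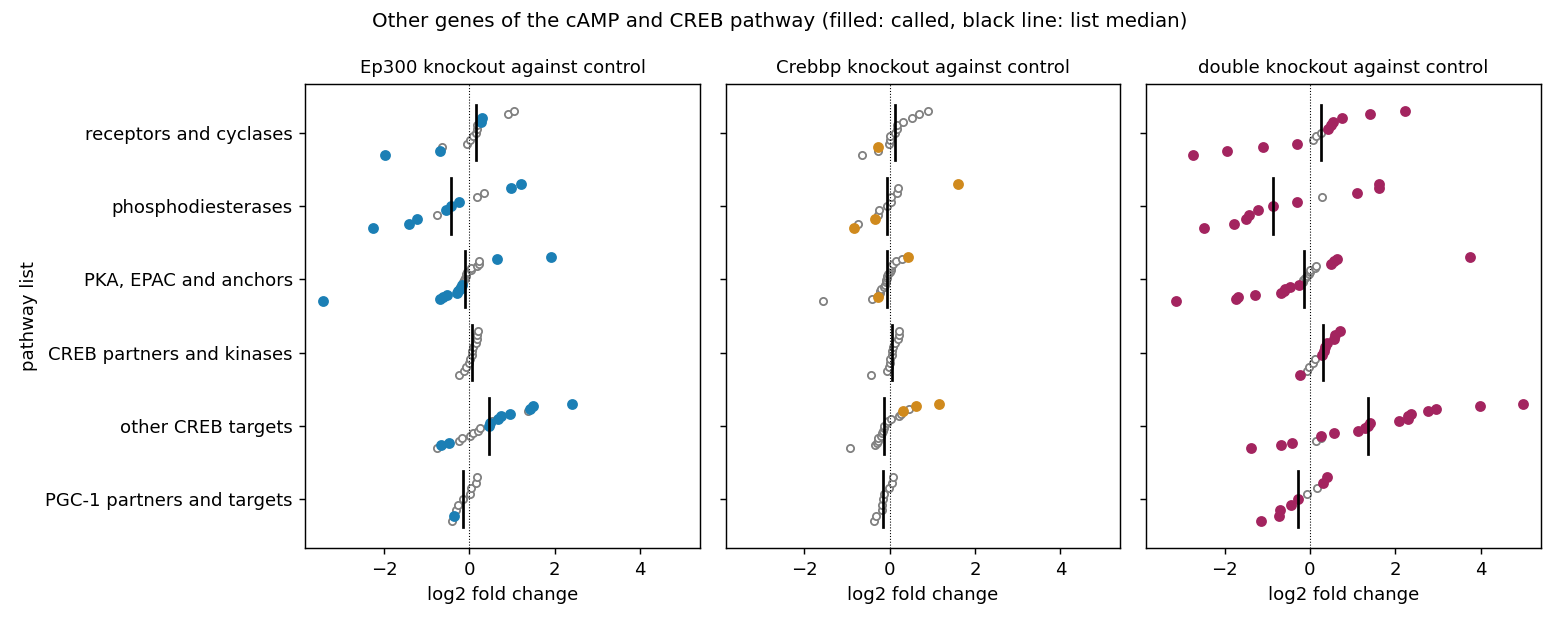
Log2 fold change (horizontal axis) of the tested genes of 6 pathway lists (vertical axis) in each knockout group against control. Filled points passed an adjusted p of 0.05, open points did not, and black lines are list medians. In double knockout the median of the other CREB targets lies at 1.37 and that of the phosphodiesterases at -0.87.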

How the data were processed

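The 12 libraries were made from total RNA with a stranded mRNA kit, per the labels' protocols. The authors deposited whole-number read counts per gene. Per the submitters' processing notes, bcl2fastq, HISAT2 and HTSeq were used with the mm10 genome. Their versions, the strand setting of the counting and its gene models were not given in the sources used here. Symbols, positions, exon length and GC content came from GENCODE M21, which lacked 29 of 54752 gene identifiers (at most 0.00378% of counts).

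Counts were tested with edgeR 4.0.16 in R 4.3.3 (filterByExpr, TMM, robust quasi-likelihood test, 4 groups in 1 fit over 12 libraries), with Benjamini-Hochberg adjustment over 18434 genes and a threshold of 0.05. Every adjusted p in the text is from this test unless another is named. The common biological coefficient of variation was 9.46%. Library totals of 64257251 to 85604243 counts gave each of the 10 genes at least 200 counts per library. CPM used TMM-scaled totals. Likeness is Pearson's r of log2 CPM with a prior count of 2. The script was also run on simulated data with few changed genes, which does not test the scaling where many genes change.

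Named were the targeted genes, the 10 genes, and in each pathway list the 3 called genes with the smallest adjusted p and both extremes. Per gene, the 2 most alike with a mean of at least 5 CPM were named. The 10 genes and all lists were chosen with earlier results of these data known. Alternatives were RLE factors, DESeq2 1.42.0, limma-voom (limma 3.58.1), other filters, only the groups compared, a replicate block, length and GC offsets, and leaving out libraries.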

Additional observations from a re-analysis of the deposited data

Results flagged for a closer look

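For 3 of the 10 genes the change in double knockout differed from the sum of the changes in both single knockouts, by edgeR's test of that difference over all genes. Nr4a1 lay 1.33 ± 0.14 (log2, SE, adjusted p = 2.78e-05) above the sum, and all 3 double-knockout libraries were above the 9 others. Nr4a2 lay 0.83 ± 0.18 above it (0.00787), again with 3 of 3 double-knockout libraries above the rest. Pde4b differed by -0.67 ± 0.09 (0.000172), with 3 of 3 double-knockout libraries below and 3 of 3 Ep300-knockout libraries above all others. Such separation was common. Of all tested genes, 59.7% had double-knockout libraries fully apart from control, 47.4% from Ep300 knockout and 56.5% from Crebbp knockout. The share apart from all other libraries at once was not counted.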

How the results depend on the processing

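Of 70 results on single genes, 38 kept their direction and side of the threshold in every other setting. Without control replicate 2 or without Ep300-knockout replicate 3, 3 of the 10 genes are called in Ep300 knockout. In Crebbp knockout, 577 genes were called, against 1279 by DESeq2, 1270 with no filter, 1092 with length and GC offsets, 257 with only the groups compared and 321 with the replicate block. DESeq2 and the offsets each called 4 of the 10 genes there. Leaving out each library in turn gave 2276 to 3204 genes and 3 to 5 of the 10 in Ep300 knockout, 214 to 774 and 1 to 3 in Crebbp knockout, 7653 to 9493 and 8 to 10 in double knockout, and 1119 to 2861 and 3 to 3 for departure from the sum. Between knockouts the ranges were 4298 to 7095 and 5 to 7 (double against Ep300), 6497 to 8448 and 6 to 8 (double against Crebbp) and 1780 to 2783 and 2 to 4 (Ep300 against Crebbp). Where an arm was left with 2 libraries, the spread was pooled over all groups. The cause of these shifts was not tested.

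Replicate numbers did not pair the libraries: same-numbered libraries correlated at -0.17 to 0.107 over 18 pairs, and 1 of 12 correlated best with its own number. With the replicate block, the call ended for Sik1 in double against Crebbp knockout (0.32, adjusted p = 0.0761) and for Creb1 in Ep300 against Crebbp knockout (-0.20, 0.0577), and it changed no other call on the 10 genes.

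Signs turned only for values that were not called. With length and GC offsets, and with the replicate block with offsets, Pde4d in Ep300 knockout was 0.0246 and 0.0260, Nr4a3 in double against Ep300 knockout -0.0814 and -0.0825, and Ppargc1a's departure -0.0731 and -0.0734. With only the groups compared, Nr4a3 in double against Ep300 knockout was -0.00374. Leaving out libraries turned, in Ep300 knockout, Pde4d (-0.111 to 0.0141), Nr4a1 (-0.122 to 0.0808), Sik1 (-0.171 to 0.0558) and Crem (-0.160 to 0.0352), and in Crebbp knockout Nr4a1 (-0.188 to 0.0147), Sik1 (-0.0199 to 0.174) and Pde4b (-0.0381 to 0.00882). It also turned Nr4a3 in double against Ep300 knockout (-0.0695 to 0.0937), Nr4a1 in Ep300 against Crebbp knockout (-0.00238 to 0.133), and the departures of Nr4a3 (-0.191 to 0.00580) and Ppargc1a (-0.0475 to 0.0740). The setting without both libraries of lowest TMM factor was chosen after seeing the data.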

Other observations

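Genes with the full palindrome TGACGTCA in their RefSeq promoter window were also counted. Of 382 such genes tested, 33.0% were higher and 20.9% lower in double knockout, beside 30.5% and 26.4% of all 11052 tested genes with a window, with median log2 fold changes of 0.07 and 0.02. In Ep300 knockout 8.38% were higher and 4.97% lower, beside 9.17% and 10.7%. In Crebbp knockout 2 genes were higher and 3 lower, or 0.524% and 0.785%, beside 1.31% and 1.91%. These shares are descriptions of genes grouped by letters in a window of fixed length, and their difference was not tested.

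Double-knockout libraries also stood apart in their relation to gene length. The log2 deviation of a gene from its mean over the 12 libraries was fitted on exon length and GC content together. At fixed GC content it changed by 0.0477 to 0.0691 per doubling of exon length in the 3 double-knockout libraries. In the other 9 it changed by -0.0663 to 0.00687.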
